A study of Mus musculus with 4 samples.

Results

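The hedgehog pathway was followed across the cells of the fetal mouse ovary through 6 genes, Ptch1, Smo, Hhip, Gli1, Gli2 and Gli3. They were chosen as the receptors and the GLI transcription factors of the pathway, by gene symbol, and all 6 were among the 19321 genes of the deposited table. The cells were taken from the gonads of C57BL/6 mouse embryos with XX chromosomes, with no treatment or transgene in the labels, at 4 embryonic stages, a day apart, from E11.5 to E14.5. Each stage had 1 droplet library (10x Chromium, 3′ chemistry), so a stage and its library cannot be told apart. The labels do not say how many embryos were pooled in a library or how they were sexed.

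Hedgehog ligands bind Patched (PTCH1) on the receiving cell. Unbound Patched holds the membrane protein Smoothened (SMO) inactive, and binding releases it, which happens at the primary cilium. Active SMO stops the processing of GLI2 and GLI3, the zinc-finger factors that carry the signal, into repressors. GLI2 acts mainly as an activator and GLI3 mainly as a repressor, and GLI1 is an activator that is itself switched on by the pathway. PTCH1 and the ligand-binding membrane protein HHIP are transcribed in response to the signal and dampen it. In the fetal testis Sertoli cells release desert hedgehog, which acts on the interstitium, where the steroid-producing Leydig cells arise. In the ovary hedgehog ligands from granulosa cells are known to act on theca cell precursors, mostly at later stages than these.

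The 4 libraries held between 4787 and 4916 cells, 19387 in all, with median cell totals of 11361 to 14258 unique molecular identifiers (UMIs, each standing for 1 captured RNA molecule). After removal of 5 cells with over 20% mitochondrial UMIs and of 469 called doublets, 18913 cells were kept. The libraries shared 175 barcode sequences, carried by 354 cells. In the E14.5 library 916 kept cells (19.6%) had a UMI of a Y-linked gene, against 0 cells in each of the other libraries. These cells were spread over the classes (17.8% to 24.5% of the interstitial, surface epithelium, supporting and germ cells), and 100% of the somatic ones also had a UMI of Xist. Fits between classes and stage ratios that rest on E14.5 were therefore also computed without them. The levels in CPM, their ratios between classes, the permutation test and the shares given below kept them.

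Cells were sorted by fixed rules on UMIs above 0, and the class names stand for these rules. An interstitial cell had Col1a1 and Tcf21, a surface epithelium cell Upk3b with Krt19 or Krt7, a supporting cell at least 3 of Fst, Wnt4, Wnt6, Irx3 and Runx1, and a germ cell at least 3 of Dazl, Ddx4, Dnd1, Mael, Dppa5a and Mov10l1. Cells that met several of these rules, or also a rule for endothelial, erythroid or immune cells (1693 cells), and cells that met none (2887 cells) were left out. The classes held 1285 interstitial, 1836 surface epithelium, 6523 supporting and 3747 germ cells. Genes outside the rules, chosen during the analysis, were set against the names. Pdgfra, Dcn, Lum, Col3a1 and Nr2f2 summed to between 747 and 1462 UMIs per 1000000 (CPM) in the interstitial class, 367 to 552 in surface epithelium and 80.7 to 194 in supporting cells. Lrrn4, Msln, Krt8, Krt18 and Muc16 summed to 196 to 708 CPM in surface epithelium and 152 to 232 in supporting cells, so the surface class stood least apart at E11.5. A level below is the CPM of all cells of a class in 1 library, with an exact Poisson 95% interval that covers counting error only, or the mean ± SD over the 4 libraries, where the SD also holds stage differences.

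Ptch1, the main hedgehog receptor and a common readout of the pathway, was found in every class at a low level and was lowest on average in the interstitium. Interstitial cells had 7.35, 3.02, 3.96 and 9.63 CPM from E11.5 to E14.5, in stage order, from 28, 9, 23 and 21 UMIs. Supporting cells had 7.96, 8.83, 10.1 and 10.4 CPM over the same stages. Interstitial values thus lay under the supporting ones in all 4 libraries, by little at E11.5 and E14.5. Surface epithelium had 6.98, 8.14, 7.29 and 6.00 CPM. Germ cells had 5.98, 10.8, 12.1 and 16.3 CPM, the widest range over stages of the 4 classes. By mean the order was germ cells (11.3 ± 4.25 CPM, SD, n = 4), supporting cells (9.32 ± 1.13), surface epithelium (7.10 ± 0.883) and interstitium (5.99 ± 3.06), and the values of neighbours in this order overlapped. Erythroid cells had 1.73, 13.6, 10.1 and 13.7 CPM.

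Smo, the signal transducer that Patched restrains, was high in the somatic classes and low in germ cells. Interstitial cells had 78.7, 84.2, 87.9 and 85.3 CPM from E11.5 to E14.5. Surface epithelium had 85.2, 103, 97.3 and 93.7 CPM, and supporting cells 52.9, 73.0, 66.2 and 69.6 CPM. Germ cells had 2.63, 1.56, 5.46 and 12 CPM, below each somatic class in every library. Surface epithelium (94.8 ± 7.42 CPM, SD, n = 4) was above interstitium (84.0 ± 3.86), and interstitium above supporting cells (65.4 ± 8.81), within each of the 4 libraries. Endothelial cells had 37.3 to 46.8 CPM, and erythroid cells 1.73 to 9.73.

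Hhip, which binds hedgehog ligands and keeps them from Patched, had 0 UMIs in interstitial cells of every library. With 14784867 interstitial UMIs in all, the exact Poisson interval of a count of 0 reaches 0.2495 CPM. Supporting cells had 0.819, 1.68, 1.20 and 1.13 CPM in stage order, from 25, 44, 24 and 8 UMIs. Germ cells had 0.584, 0.359, 0.497 and 0.675 CPM, and surface epithelium 0.107, 0.25, 0.417 and 0.572 CPM, the latter from 7 UMIs in all. The supporting level was above the germ cell and surface levels within each library. Summed over the libraries, Hhip was 5.93-fold lower in interstitial than in supporting cells with the interstitial value set at a floor of 3 UMIs over the group. The counting interval of the ratio of interstitial to supporting cells reached 0.211. Endothelial, erythroid and immune cells also had 0 UMIs of Hhip.

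Gli1, the factor that the pathway itself induces, had its highest level among the classes in the interstitium, where few cells had a UMI of it. Interstitial cells had 1.57 CPM (0.578 to 3.43), 2.35 (0.945 to 4.84), 3.10 (1.83 to 4.89) and 2.75 (1.01 to 5.99) in stage order, from 6, 7, 18 and 6 UMIs. Surface epithelium had 0.322, 0.376, 0.833 and 0 CPM, supporting cells 0.0983, 0.0762, 0.05 and 0, and germ cells 0.146, 0.0599, 0.110 and 0.108. The interstitial value was the highest in each library. Over all libraries 37 interstitial UMIs stood against 10 in surface epithelium, 6 in supporting cells and 8 in germ cells, although the last of these classes held 78703566 UMIs. That made Gli1 35.0 times as abundant in interstitial as in supporting cells (14.6 to 101, counting interval). It was 6.41 times (3.12 to 14.4) the surface level and 24.6 times (11.3 to 61.2) the germ cell level. Endothelial and erythroid cells had 0 UMIs, for which the exact Poisson interval reaches 0.465 and 0.394 CPM.

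A large share of the Gli1 UMIs lay outside the 4 classes: 43 in cells that met no rule, which gives 1.22 CPM there, and 12 in cells that met several. Of the 41 cells of no class that had Gli1, 22 (53.7%) had Col1a1, against 27.0% of all 2887 cells of no class, and 8 (19.5%) had Tcf21, against 20.5%. A cell of no class cannot have both Col1a1 and Tcf21, since that pair is the interstitial rule. More Col1a1 thus leaves less room for Tcf21, and the Tcf21 shares cannot be compared on their own. Col1a1, Pdgfra (61.0% against 41.5%), Col3a1 (80.5% against 64.1%) and Dcn (53.7% against 28.9%) were more frequent in the Gli1 cells. These shares describe 41 cells only and come from cells that were not thinned. Depth affects such shares, and it was not matched between the Gli1 cells and all cells of no class. The interstitial class also carried perivascular markers (Rgs5, Cspg4, Mcam, Notch3, Kcnj8 and Abcc9, with 0 of 6 at 0 in each library). They summed to 51.4 to 124 CPM there, 14.6 to 18.7 in surface epithelium, 8.34 to 11.4 in supporting cells and 7.30 to 10.3 in germ cells. Their part in the Gli1 difference was not tested. Markers of steroid-producing cells (Star, Cyp11a1, Hsd3b1, Cyp17a1, Insl3 and Nr5a1) summed to 16.5 to 26.8 CPM in interstitial cells, with 2 to 4 of the 6 genes at 0, and to 87.8 to 141 CPM in supporting cells.

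Gli2, the main activator of the pathway, was a gene of the interstitium and the surface epithelium. Interstitial cells had 6.30, 14.8, 12.9 and 11.9 CPM in stage order, and surface epithelium 7.51, 7.89, 11 and 6.29. Supporting cells had 1.44, 1.94, 1.85 and 1.83 CPM, and germ cells 0.146, 0.539, 0.552 and 0.351. Every interstitial and surface value was above every supporting value, and every supporting value above every germ cell value, while the interstitial and surface values overlapped. The means were 11.47 ± 3.65 CPM (SD, n = 4) in interstitium, 8.18 ± 2.02 in surface epithelium, 1.77 ± 0.222 in supporting cells and 0.397 ± 0.191 in germ cells. Endothelial cells held 2 Gli2 UMIs and erythroid cells 0.

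Gli3, the main repressor of the pathway, was also present in germ cells. Interstitial cells had 29.1, 31.2, 26.7 and 33.9 CPM from E11.5 to E14.5, and surface epithelium 23.6, 33.2, 28.3 and 18.3. Germ cells had 15.5, 20.2, 24.4 and 25.7 CPM, and supporting cells 7.73, 13.8, 15 and 17.1. In each library the supporting level was the lowest of the 4, and interstitium (30.2 ± 3.09 CPM, SD, n = 4), surface epithelium (25.9 ± 6.38) and germ cells (21.4 ± 4.63) overlapped with their neighbours. Erythroid cells had 0 to 2.89 CPM and endothelial cells 3.74 to 9.89.

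**Figure D1:**
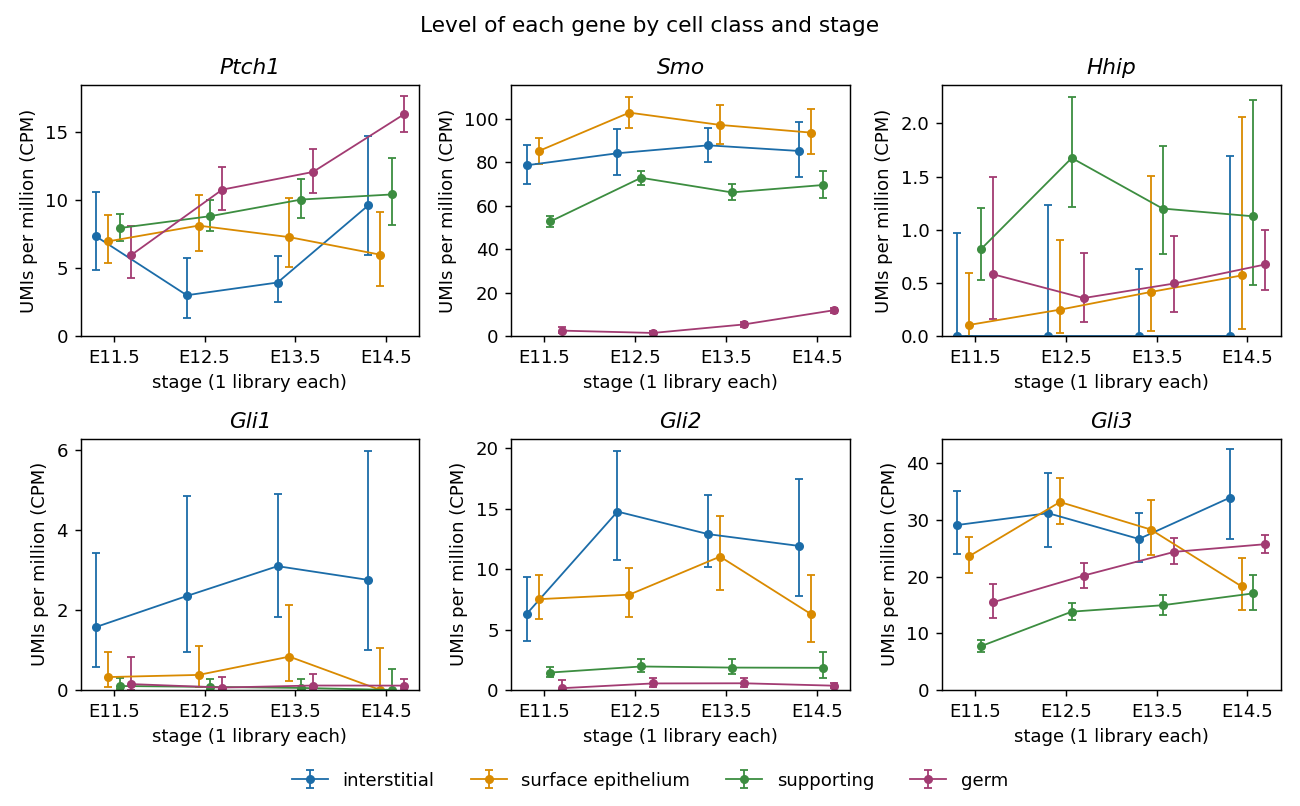
CPM (vertical axis) of the 6 genes at each stage (horizontal axis) in interstitial, surface epithelium, supporting and germ cells; points are single libraries and bars exact Poisson 95% intervals. Gli1 is highest in the interstitium in each library, Hhip is at 0 there in all 4 libraries, and Smo is far lower in germ cells than in the somatic classes.

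Differences between classes were tested with limma on log2(CPM + 1) of the 16 class and library sums, with the library as a block, and p-values were adjusted over all 13867 genes tested. A gene was called at an adjusted p under 0.05 and at least a 2-fold difference. The pseudocount of 1 CPM shrinks the differences of low genes such as Hhip and Gli2, so these fitted values understate the CPM ratios. The libraries are different stages, so the residual spread holds stage effects that differ between classes. It is pooled over the 4 classes, so a gene has the same SE in each comparison of them, whichever class varies most. Gli1 had too few UMIs for the filter (at least 10 in 4 sums), and 5 of the 6 genes were tested.

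Between interstitial and supporting cells, Gli2 and Gli3 were called higher in the interstitium. Hhip was lower there by count, and its call is no valid test. Gli2 was higher by 2.12 on the log2 scale (SE 0.19, adjusted p = 6.12e-07) and Gli3 by 1.16 (SE 0.20, adjusted p = 0.000256), both in 4 of 4 libraries. Hhip differed by -1.13 (SE 0.17, adjusted p = 6.14e-05) and was lower in 4 of 4 libraries. By library, the counting interval of its ratio of interstitial to supporting cells reached 1.27, 0.771, 0.571 and 1.91 in stage order. At E11.5 and E14.5 the counts thus cannot tell the classes apart. The interstitial sums of Hhip were all 0, and it passed the filter only through 3 supporting sums and 1 germ cell sum. Its call therefore lends no support to the count, and without any 1 library it had too few UMIs to be tested. With Hhip, 3 of 5 tested genes were called, where 20.8% of all genes were (8.95% higher, 11.9% lower). Gli2 and Gli3, both higher, are the calls that remain when Hhip is left aside. The median difference of the 5 genes was 0.37, also with Hhip at its floor value, against -0.04 for all genes. Smo (0.37, SE 0.30, adjusted p = 0.346, higher in 4 of 4) and Ptch1 (-0.66, SE 0.28, adjusted p = 0.0676, lower in 4 of 4) were not called. The Gli3 difference fell under 2-fold without the E11.5 library (0.96) and with cells that met several rules kept (0.96), where that of Hhip did too (-0.95).

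No tested gene was called between the interstitium and the surface epithelium: limma called 0 of 5, 1 had an unadjusted p under 0.05 and limma-voom also called 0, where 11% of all genes were called. Gli2 differed by 0.41 (SE 0.19, adjusted p = 0.153, higher in 3 of 4 libraries) and Hhip by -0.41 (SE 0.17, adjusted p = 0.0938). Surface epithelium held 7 Hhip UMIs and the interstitium 0, so the Hhip value is no valid test of these classes. The surface epithelium was in turn set against supporting cells, and there Gli2 was higher by 1.71 (SE 0.19, adjusted p = 9.97e-06, 4 of 4). It was the only call among the 5, where 14.9% of all genes were called. Gli3 was 0.92 higher in surface epithelium (SE 0.20, adjusted p = 0.00234), under 2-fold, and passed at 1.19 without the E14.5 library, where the classes were close. Hhip differed by -0.72 (SE 0.17, adjusted p = 0.00325), also under 2-fold. It passed the filter through no surface epithelium sum, so this p-value lends no support either.

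Smo and Gli2 were lower in germ cells than in the interstitium. Interstitial Smo was higher by 4.01 (SE 0.30, adjusted p = 1.96e-08) and Gli2 by 3.11 (SE 0.19, adjusted p = 2.71e-09), each in 4 of 4 libraries. These were 2 calls among 5 genes, a share near that of all genes, of which 39.9% were called, 3540 higher and 1993 lower in the interstitium. Under median-of-ratios scaling that split was 2922 to 2762, and the median of all genes moved from 0.19 to -0.06. Ptch1 differed by -0.85 (SE 0.28, adjusted p = 0.0145), lower in interstitial cells in 3 of 4 libraries, which missed the 2-fold limit. It reached -1.14 under median-of-ratios scaling, -1.22 without the E11.5 library and -1.08 with limma-voom. Gli3 was 0.50 higher (SE 0.20, adjusted p = 0.0394) and Hhip differed by -0.61 (SE 0.17, adjusted p = 0.00442), both under 2-fold. The Hhip value again rests on interstitial sums of 0, and its p-value lends no support.

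Supporting cells had more Smo than germ cells, by 3.64 (SE 0.30, adjusted p = 5.29e-08, 4 of 4 libraries), the only call among 5 genes, where 43.5% of all genes were called (4058 higher and 1981 lower, and 3276 and 2790 under median-of-ratios scaling). Gli2 was 0.99 higher in supporting cells (SE 0.19, adjusted p = 0.000329, 4 of 4), just under 2-fold. It passed at 1.01 without the E12.5 library, at 1.03 without the E13.5 library and at 1.04 without the cells with a Y-linked UMI. Gli3 differed in the other direction, at -0.67 (SE 0.20, adjusted p = 0.00801), with germ cells higher in 4 of 4 libraries.

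For Gli1, the mean difference in CPM over the 4 libraries was 2.39 ± 0.686 (SD, n = 4) against supporting cells, 2.06 ± 0.627 against surface epithelium and 2.34 ± 0.669 against germ cells, higher in the interstitium in 4 of 4 libraries each time. The exact sign-flip permutation test gave a two-sided p = 0.125 for all 3, also after adjustment over the 3 comparisons, which is the smallest that 4 libraries allow. In a fit with no filter beyond 1 UMI, limma called Gli1 in all 3, at 1.68, 1.33 and 1.62 on the log2 scale. The supporting, surface epithelium and germ cell sums held only 0 to 4 Gli1 UMIs each, with little room to spread. These calls therefore lend no support.

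**Figure D2:**
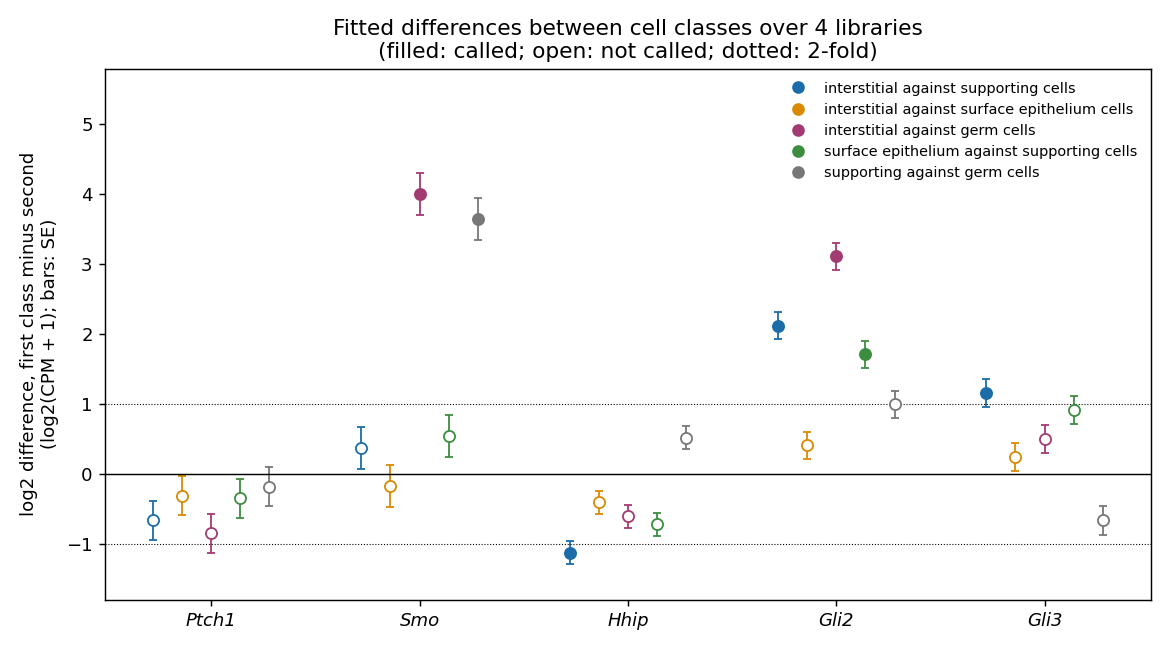
Fitted log2 differences (vertical axis, log2(CPM + 1), bars are SE) of the 5 tested genes in 5 class comparisons over 4 libraries; filled points were called and dotted lines mark 2-fold. Smo and Gli2 show the widest gaps, towards germ cells (4.01 and 3.11), and the interstitium and surface epithelium have no filled point between them. Hhip passed the filter only through supporting and germ cell sums.

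The rest of the pathway was read from lists of ligands, co-receptors, regulators, cilium genes and reported targets. Ligand UMIs were few. Desert hedgehog, Dhh, had 41 UMIs in endothelial cells, where it stood at 6.93, 2.76, 5.38 and 9.36 CPM in stage order. Supporting cells had 37 Dhh UMIs, at 0.524, 0.419, 0.350 and 0.423 CPM, and interstitial cells had 1. The endothelial Dhh level was thus above the supporting one in each library. Shh had 22 UMIs in germ cells, 7 in supporting and 0 in interstitial cells. Ihh had 11, 5 and 2 UMIs in these classes. Of the 9 genes of ligands and their release 5 were tested between interstitial and supporting cells, and Disp1, which releases lipid-bearing ligand from the cell, was lower in the interstitium by a difference of -1.11 (SE 0.25, adjusted p = 0.00191).

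Of the co-receptors Gas1, Cdon, Boc and Lrp2, 1 was higher in interstitial than in supporting cells, 1 was lower and 2 were not called. Gas1, a membrane-anchored co-receptor, stood at 102, 101, 201 and 116 CPM in interstitial cells and 27.2, 40.8, 58.0 and 29.0 in supporting cells, a difference of 1.73 (SE 0.21, adjusted p = 1.0e-05). Cdon, a co-receptor of the immunoglobulin family, ran the other way and had 6.04, 8.39, 9.80 and 11.9 CPM against 20.9, 20.2, 22.0 and 23.8 (-1.21, SE 0.17, adjusted p = 4.14e-05). So the interstitial cells, with less Cdon, had more Gas1 than the supporting cells in every library. The related co-receptor Boc (-0.24, adjusted p = 0.389) and the endocytic receptor Lrp2 (-0.06, adjusted p = 0.823) were not called. Lrp2 had 0 CPM in interstitial cells of all 4 libraries and 0 to 0.141 CPM in supporting cells, so it was hardly found in either class.

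Of the 14 tested regulators of SMO and GLI only Ulk3, a kinase that acts on GLI proteins, was called, and it was lower in the interstitium (-1.21, SE 0.26, adjusted p = 0.0014). Sufu, which holds GLI proteins in the cytoplasm, differed by 0.21 (SE 0.23, adjusted p = 0.487), and Kif7, the kinesin of the ciliary tip, by 0.05 (SE 0.35, adjusted p = 0.924). The medians of these regulators (0.07) and of the primary cilium genes (-0.26) lay beside -0.04 for all genes. limma and limma-voom called 0 of 12 cilium genes, and 4 had an unadjusted p under 0.05. Of 11 tested genes reported elsewhere as hedgehog targets, 3 were higher in the interstitium, 1 was lower and 7 were not called. The growth factor gene Tgfb2 was higher by 3.62 (SE 0.22, adjusted p = 2.06e-08), the secreted Wnt antagonist gene Sfrp1 by 4.07 (SE 0.26, adjusted p = 2.74e-08) and the forkhead factor gene Foxc2 by 3.29 (SE 0.30, adjusted p = 5.57e-07). The zinc-finger factor gene Osr2 was lower (-1.31, SE 0.24, adjusted p = 0.000405). Against germ cells, 8 of 14 regulators and 9 of 11 targets were higher in interstitial cells, with list medians of 1.32 and 3.01 where that of all genes was 0.19.

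Detection in single cells was compared with each cell thinned to 5000 UMIs, and 0 cells were shallower than that. Erythroid cells were set beside the other classes, since free RNA in the droplets can give UMIs to cells that do not express a gene. With the libraries together, Gli1 was found in 15 of 1285 interstitial cells (1.17%, Clopper-Pearson 0.655 to 1.92) and in 0 of 350 erythroid cells. A floor of 3 cells in the erythroid class gives a share of 0.857%, above the lower end of the interstitial interval. Gli1 was found in 4 of 6523 supporting cells (0.0613%) and 2 of 3747 germ cells (0.0534%). Without thinning, 34 interstitial cells (2.65%) had Gli1. Gli2 was found in 6.07% of interstitial cells (4.83 to 7.52), 3.59% of surface epithelium cells, 0.904% of supporting cells, 0.160% of germ cells and 0 erythroid cells. Gli2 thus kept the order of the class means in CPM. Gli3 was found in 12.4% of interstitial, 11.3% of surface epithelium, 11.4% of germ, 5.03% of supporting and 0.286% of erythroid cells. Smo was found in 36.3%, 35.5%, 4.72%, 26.7% and 3.43% of the same classes, so that its germ cell share (4.07 to 5.45) overlapped the erythroid one (1.78 to 5.91). Unthinned cells had median totals of 10627 UMIs in the interstitial, 19067 in the germ and 25821.5 in the erythroid class, and Smo was then found in 60.9%, 13.7% and 14.3% of them.

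For Ptch1 the comparison with erythroid cells differed between libraries. With the libraries together it was found in 3.71% of thinned erythroid cells (1.99 to 6.27), 3.04% of interstitial cells (2.17 to 4.13), 3.92% of surface epithelium cells (3.08 to 4.91) and 4.51% of supporting cells (4.02 to 5.04). These intervals overlapped, but 228 of the 350 erythroid cells came from E14.5. At E11.5 Ptch1 was found in 0 of 83 thinned erythroid cells and stood at 1.73 CPM there (0.472 to 4.44), below the intervals of interstitial (4.88 to 10.6), surface epithelium (5.38 to 8.89) and supporting cells (6.99 to 9.02). Erythroid cells held 98 Ptch1 and 6 Gli3 UMIs, where all kept cells held 2762 and 5592. Whether free RNA gave the erythroid Ptch1 UMIs was not tested. Germ cells, at 7.21% (6.40 to 8.08), were above the erythroid share with the libraries together, while at E14.5 the germ cell share of 8.43% (7.32 to 9.66) and the erythroid share of 4.39% (2.12 to 7.92) had overlapping intervals. Hhip was found in 0 of 1285 interstitial cells and 0 of 350 erythroid cells, and in 44 of 6523 supporting cells (0.675%, 0.491 to 0.904).

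**Figure D3:**
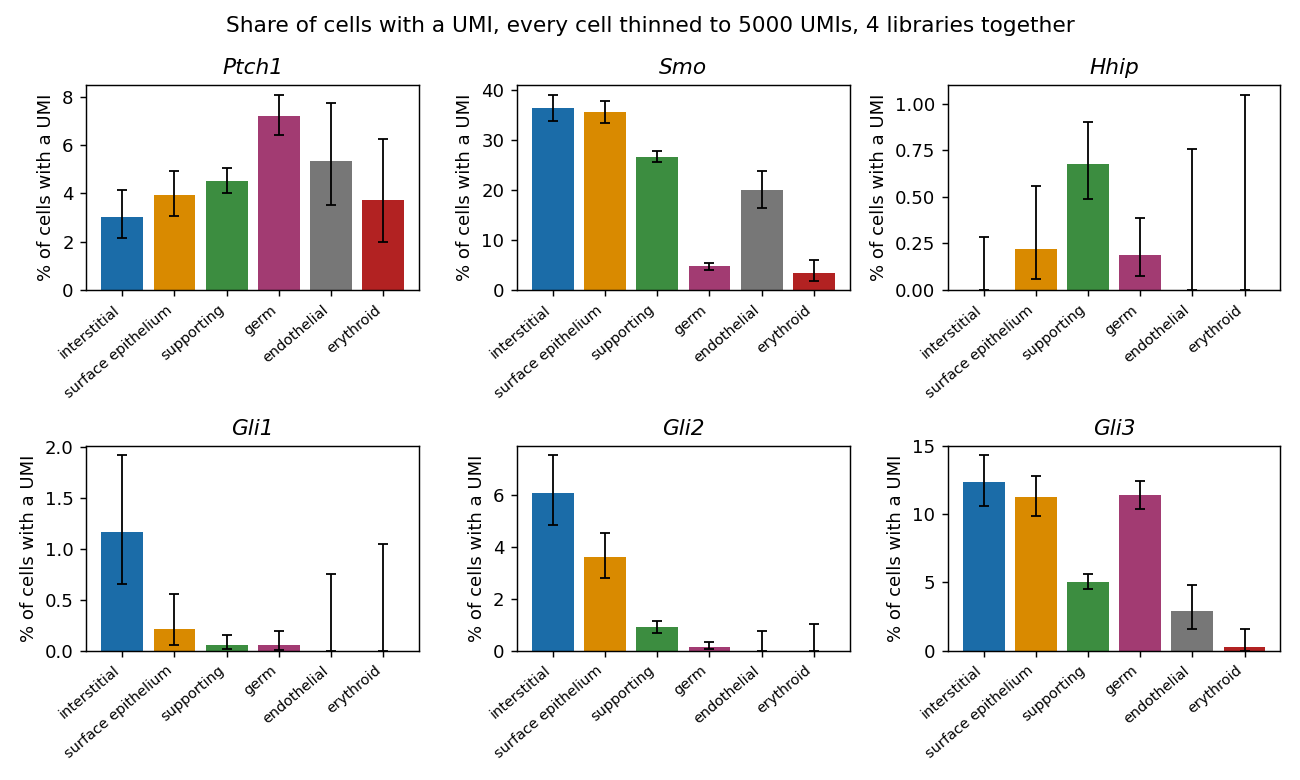
Share of cells with a UMI of each gene (vertical axis, percent) in 6 classes (horizontal axis), cells of the 4 libraries together and each thinned to 5000 UMIs; bars are Clopper-Pearson 95% intervals. Gli2, Gli3 and Smo lie above the erythroid interval in interstitial cells, Ptch1 does not (3.04% against 3.71%), and the Gli1 interval (0.655 to 1.92) overlaps the range that 0 erythroid cells leave.

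The balance of the activator and the repressor gene differed between the classes. Gli2 made up 17.8% of the Gli2 and Gli3 UMIs of interstitial cells at E11.5 (11.7 to 25.3), then 32.1% (24.4 to 40.6), 32.6% (26.6 to 39.1) and 26.0% (17.7 to 35.7). In surface epithelium it made up 19.2% to 28.0%, in supporting cells 9.70% to 15.7% and in germ cells 0.935% to 2.60%. The values of interstitium and surface epithelium overlapped, and both lay above all supporting values, which lay above all germ cell values. A share of 3′ UMIs compares capture of both genes within a class, and is read here across classes only. Of 1285 thinned interstitial cells, 10 had both Gli2 and Gli3 (0.778%, 0.374 to 1.43), where the product of their shares within libraries gives 0.720%. Smo with Gli3 was found in 4.12% (product 4.49%), Ptch1 with Smo in 1.09% (product 1.08%) and Ptch1 with Gli3 in 0.233% (product 0.412%), each product lying within the interval of the share.

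**Figure D4:**
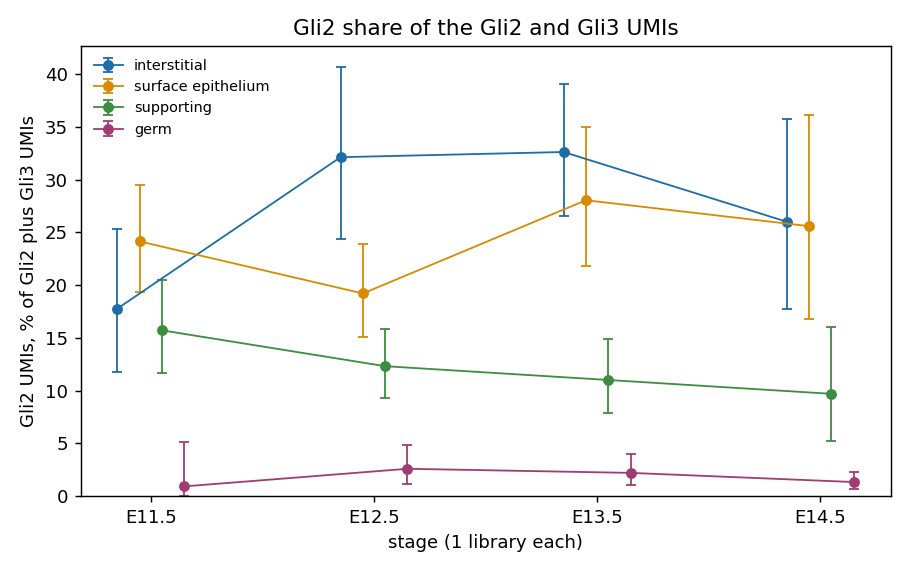
Gli2 UMIs as a percent of Gli2 plus Gli3 UMIs (vertical axis) by stage (horizontal axis) in 4 classes; points are single libraries and bars Clopper-Pearson 95% intervals. Germ cells stay at 2.60% or less, supporting cells between 9.70% and 15.7%, and interstitial cells are lowest at E11.5 (17.8%).

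Stages were compared within a class without a test, by a rule of size, a ratio of at least 2 with 50 or more UMIs in the pair of libraries. In the interstitium Gli2 was 2.35 times as high at E12.5 as at E11.5 (log2 1.23, counting interval 0.48 to 2.01). It was 1 of the 3 genes with enough UMIs (Gli2, Gli3 and Smo), where 4.93% of all genes passed. From E12.5 to E13.5 and from E13.5 to E14.5 0 of these 3 passed (4.10% and 3.25% of all genes), and from E11.5 to E14.5 Gli2 stood at 0.92 (0.06 to 1.78), under the limit, with 0 of 3 passing (8.01% of all genes). Interstitial Smo moved little, with log2 ratios between -0.04 and 0.12 over the 4 comparisons. Ptch1, with 44 UMIs over both libraries, was 2.43 times as high at E14.5 as at E13.5 (log2 1.28, 0.36 to 2.2), and 0.94 without the cells with a Y-linked UMI. In surface epithelium 0 of 4 genes passed in any of the 4 comparisons (3.03%, 2.61%, 3.14% and 8.88% of all genes), and Gli3 stood at -0.63 (-1.08 to -0.19) from E13.5 to E14.5.

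Supporting cells had more Gli3 at each later stage than at E11.5. The E14.5 level was 2.21 times the E11.5 level (log2 1.14, 0.81 to 1.46; 1.23 without the cells with a Y-linked UMI), 1 of 4 genes past the limit where 15.3% of all genes were. Under median-of-ratios scaling it stood at 0.98, under the limit. Hhip was 2.05 times as high at E12.5 as at E11.5 (log2 1.03, 0.29 to 1.80), 1 of 5 genes where 8.14% of all genes passed, and 1.00 under that scaling, just short of it. Between E12.5 and E13.5 the count was 0 of 5, and between E13.5 and E14.5 it was 0 of 4 (3.72% and 3.09% of all genes).

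Germ cells had more Smo and Ptch1 at E14.5 than at E11.5. Smo was 4.58 times as high (log2 2.2, 1.52 to 2.96) and Ptch1 2.73 times (1.45, 0.99 to 1.94), 2 of 3 genes past the limit where 39.5% of all genes were, 3684 higher and 1076 lower. The median of all genes in this comparison was 0.42, and median-of-ratios scaling left Smo at 1.87 and Ptch1 at 1.12. Without the cells with a Y-linked UMI they stood at 2.19 and 1.46. The steps in Smo were -0.75 (-1.68 to 0.20) between E11.5 and E12.5, 1.81 (1.18 to 2.49) to E13.5 and 1.14 (0.82 to 1.47) to E14.5. Smo was 1 of 3 genes past the limit in each of the last pair of steps, where 6.92% and 18.6% of all genes passed. Under median-of-ratios scaling the last step stood at 0.98, under the limit. Of the genes with enough UMIs, 0 of 2 passed from E11.5 to E12.5 (4.69%). Germ cell Gli3 stood at 0.73 (0.44 to 1.04) over the whole span, under the limit. Median germ cell totals fell from 30884.5 UMIs at E11.5 to 15331 at E14.5, and erythroid cells had 1.73 and 8.89 CPM of Smo and 1.73 and 13.7 of Ptch1 at these stages, a shift in the same direction whose part in the germ cell values was not tested.

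**Figure D5:**
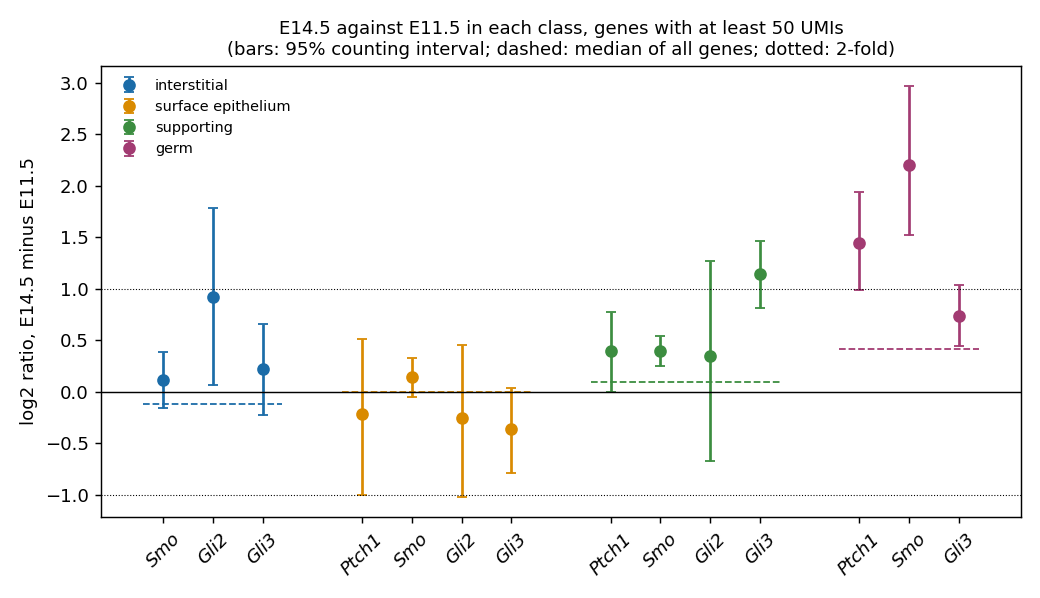
Log2 ratio of E14.5 to E11.5 (vertical axis) for the genes with at least 50 UMIs in each class (horizontal axis), 1 library per stage; bars are 95% counting intervals, dashed lines the median of all genes and dotted lines 2-fold. Germ cell Smo (2.2) and Ptch1 (1.45) and supporting Gli3 (1.14) lie past the 2-fold line.

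Within the interstitium, cells with at least 2 of the matrix genes Mgp, Islr and Lum after thinning were set against the rest in the 3 libraries with at least 20 cells on each side (29, 145 and 85 matrix-rich cells at E11.5, E13.5 and E14.5). Gli3 was 0.69 higher in matrix-rich cells (SE 0.31, adjusted p = 0.454) and Smo 0.12 (SE 0.19, adjusted p = 0.893). Only these 2 genes had enough UMIs, and limma called 0 of them, as did limma-voom, with 1 at an unadjusted p under 0.05, where 0.237% of all genes were called. Cells with and without Gli1 could not be compared, since no library had more than 7 thinned interstitial cells with it.

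Over the 16 class and library sums, the genes most like Gli1 in log2(CPM + 1), of 10491, were Adgra2 (Pearson r 0.96), Kcnj8 (0.96), Kcns3 (0.96), Sfrp1 (0.95) and Cadm4 (0.94). Kcnj8, a potassium channel subunit, is one of the perivascular markers above. Among those most like Ptch1 were Prss36 (0.92), Brwd1, Pcca and Wdr47 (0.85 each), and those most like Hhip were Cisd3 (0.94), Dab1, Fam98c, Hps3 and Slc16a10 (0.92 to 0.94). Among the 6 genes themselves Gli1 went with Gli2 (r 0.76) and against Hhip (-0.78) and Ptch1 (-0.57). The sums share 4 libraries and differ in depth by class, so these values describe the sums only.

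On GRCm38, Ptch1 lies at chr13:63508328-63573598 and Gli3 at chr13:15463235-15730026, on opposite strands. Gli1 lies at chr10:127329882-127341974, Gli2 at chr1:118834132-119053619, Hhip at chr8:79965851-80058006 and Smo at chr6:29735503-29761365. The 3′ end of Gli1 is overlapped on the other strand by Arhgap9, and whether the counting used the strand is not given in the sources used here, so reads of the 2 genes may not be told apart. The GLI consensus GACCACCCA, searched on both strands in RefSeq windows from 250 bases before to 50 bases after the start of a gene (GRCm38.p6), was in 0 of the 5 windows matched to these genes and in 0.253% of 32851 windows. At so low a share 5 windows cannot tell these genes from others, and Gli1 had no window.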

How the data were processed

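Per the labels, version 2 of the 10x 3′ chemistry was used for the libraries. Per the submitters' processing notes, Cell Ranger 2.2.0 and mm10 were used. The deposited values are natural log values, which the authors made as ln(1 + UMIs / UMIs of the cell × 10000), as read from the values: all 69792436 values above 0 gave whole UMIs (100%, relative tolerance 1e-06). The plan had assumed counts and a count model, and limma 3.58.1 (R 4.3.3) on log2(CPM + 1) of summed UMIs took its place, with Benjamini-Hochberg adjustment. On simulated data for interstitial against supporting cells (14313 genes), 100% of 200 genes changed 4-fold were found and 0 of 14113 unchanged genes were called. The changed genes were drawn from those well counted in every sum, with a common spread and no stage effects. The simulation thus cannot tell how genes with few UMIs, such as Hhip and Gli2, or smaller differences fare.

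Doublets were scored with a score of the Scrublet type, coded anew. Its threshold of 0.25, common to all libraries, was chosen after the scores had been seen. A class sum needed 20 cells, and genes of the class rules were left out of the tests. Named genes were the 6 genes, the ligands, the co-receptors, list genes called between interstitial and supporting cells (at most 4 a list) and the 5 genes most like Gli1, Ptch1 and Hhip; some genes that this rule names are not reported here. Sufu and Kif7 were added after their values had been seen. The genes and lists were chosen with earlier results of these data known. The limma p-values measure a spread left after the block on the library and pooled over the classes in the fit. Each library is a different stage, and nothing says that cells of a library came from separate animals. Annotation came from GENCODE on GRCm38. Figures were drawn with matplotlib 3.10.9.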

Additional observations from a re-analysis of the deposited data

How the results depend on the processing

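The log2 differences of the 6 genes between classes were recomputed in 356 combinations of gene, comparison and setting: 334 kept their direction and their side of the threshold, 16 passed it anew, 6 no longer passed it and 0 changed direction. The number of genes called between interstitial and supporting cells was 3, with Hhip, whose call lends no support. It was 1 with cells that met several rules kept and with a pseudocount of 5 CPM. Without 1 library it was 1 to 2, and there Hhip had too few UMIs to be tested. Between interstitium and surface epithelium (0) it was 1 with no filter on low UMIs, namely Gli1, whose call lends no support. Between interstitium and germ cells (2) it was 4 with limma-voom. Between surface epithelium and supporting cells (1) it was 2 with a pseudocount of 0.5 CPM, 0 with 5 CPM, 3 with limma-voom and 1 to 2 without 1 library. Between supporting and germ cells (1) it was 2 with cells of several rules kept, with 0.5 CPM and without cells with a Y-linked UMI, 3 with limma-voom and 1 to 2 without 1 library. The cause of these changes was not tested.

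Over all genes, a pseudocount of 5 CPM gave 1613 calls between interstitial and supporting cells, 771 against surface epithelium, 3427 against germ cells, 1021 between surface epithelium and supporting cells and 3735 between supporting and germ cells, in place of 2891, 1532, 5533, 2072 and 6039. Cells that met several rules gave 961 and 1309 where surface epithelium was compared, and 28 in the matrix-rich comparison, whose 14 calls were 30 with all UMIs, 32 with limma-voom and 0 with no replicate block. The block on the library changed no other count by over 1.5 times. From E11.5 to E14.5, a ratio of 1.5 in place of 2 let 5 of the 6 genes' class values pass in place of 3, and a ratio of 4 let 1 pass. Over all genes these ratios gave 2103 and 103 in interstitial cells, 2528 and 175 in surface epithelium, 4036 and 496 in supporting cells and 7217 and 1839 in germ cells. A minimum of 10 UMIs gave 1670, 1950 and 3128 in the somatic classes, and class rules read on thinned cells gave 405 in interstitial cells.

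Depth set the shares of interstitial cells. Without thinning and at 2000 UMIs they were 5.53% and 0.934% for Ptch1, 2.65% and 0.389% for Gli1, 12.1% and 2.41% for Gli2, 26.8% and 5.06% for Gli3 and 60.9% and 16.4% for Smo. For Gli2 with Gli3 they were 3.97% and 0.233%, and for Smo with Gli3 16.5% and 0.856%. No paired analysis was possible because each stage has 1 library, for the comparisons of stages. Shares of cells were given with no test. Alternatives with count models (TMM scaling and a second count tool) were not run, limma-voom being the alternative run on the recovered UMIs, and neither was the comparison of cells with and without Gli1. The pseudocounts, limma-voom and the fits without Y-linked UMIs were chosen after seeing the data. At 6 to 18 UMIs per library, changes of Gli1 between stages were not detectable.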
